A study of Mus musculus with 3 samples.

Results

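The nuclear-encoded subunits of oxidative phosphorylation were described in mouse ALSCs, stem cells kept with Activin A and LIF. Members were the protein-coding genes of the deposited table whose symbols began with *Nduf* followed by a, b, c, s or v and a number, with *Cox4* to *Cox8* and a letter, with *Uqcr*, or with *Atp5*. This rule chose 82 rows with 81 symbols, out of 55421 named genes and 21926 protein-coding genes. Of these, 36 belong to complex I, 8 to complex III, 19 to complex IV (with the *Ndufa4* pair, whose products sit in that complex) and 17 to ATP synthase, also called complex V. *Cox7a2l*, a supercomplex factor, and a second row named *Atp5o* were kept apart. The cells came from epiblasts of gastrulae at embryonic day 6.5, from an ICR female mated with a GOF/GFP male, and all 3 libraries of polyA RNA belong to that 1 condition. The labels call the cells embryonic stem cells, and the study gives them as lines grown from outgrowths cut up with a glass needle. No group without Activin A or LIF was analysed here, so no comparison between conditions was made. The study calls the libraries biological replicates, but neither it nor the labels say whether they come from separate cell lines, so p-values measure only the spread between these libraries, which may be technical.

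Oxidative phosphorylation takes place in the inner mitochondrial membrane. Complexes I, III and IV pass electrons from NADH to oxygen and pump protons, and ATP synthase uses the returning protons to make ATP. Most subunits are encoded in the nucleus and imported, while a small core is encoded by mitochondrial DNA, and several subunits of complex IV exist as paralogs that are known for different tissues. Primed pluripotent cells, which resemble the post-implantation epiblast, are known to rely largely on glycolysis while they keep their mitochondria.

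The libraries held 18088505, 18724038 and 18037342 counts on named genes. Levels are given as FPKM, counts scaled to gene length and library size, as mean ± SD of the 3 libraries. A level at or under 3 counts was taken as not detected, and such limits cover counting error only. The SD values hold the whole spread between these libraries. Replicate 1 stood apart from the other libraries before any result on the subunits: genes with short transcripts had higher counts there and genes with long ones lower, as detailed with the variation between libraries. The label was checked against markers. *Pou5f1* was at 648 ± 25.3 FPKM, *Nanog* at 171 ± 17.96 and *Sox2* at 119 ± 5.21, and 6 of 6 markers of the pluripotent epiblast reached 1 FPKM in every library. The summed levels were 3.999 to 5.92 FPKM for 10 heart and skeletal muscle markers, of which 1 (*Mylpf*) reached 1 FPKM in every library, and 0.514 to 0.979 FPKM for 8 testis germ cell markers, of which 5 were at 0 throughout. They were 0.188 to 0.414 FPKM for 6 fibroblast markers, 0.0749 to 0.283 FPKM for 4 brown fat markers, and 0 to 0.0536 FPKM for 3 lung markers.

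Of the 82 member rows, 76 (92.7%) reached 1 FPKM in every library, and the same 76 held more than 3 counts in every library. Among all protein-coding genes, 10023 of 21926 (45.7%) reached that level. The other 6 rows held at most 3 counts in each library: *Ndufs3*, *Cox6a2*, *Cox7b2*, *Cox8b*, *Cox8c* and the second *Atp5o* row, which lies entirely within the exons of other annotated genes. A level of 10 FPKM was reached in every library by 73 members, 50 FPKM by 47 and 100 FPKM by 22. The median over the 76 members was 73.1 FPKM, against 8.40 FPKM over the expressed protein-coding genes. By mean level, 48 members were in the top 10% of the 11125 genes that reached 1 FPKM throughout, and 1, *Atp5b*, was in the top 1%. Together the members made up 1.42%, 1.14% and 1.17% of all counts in replicates 1, 2 and 3. *Atp5b* alone made up 15.6%, 18.8% and 17.7% of the members' counts.

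**Figure D1:**
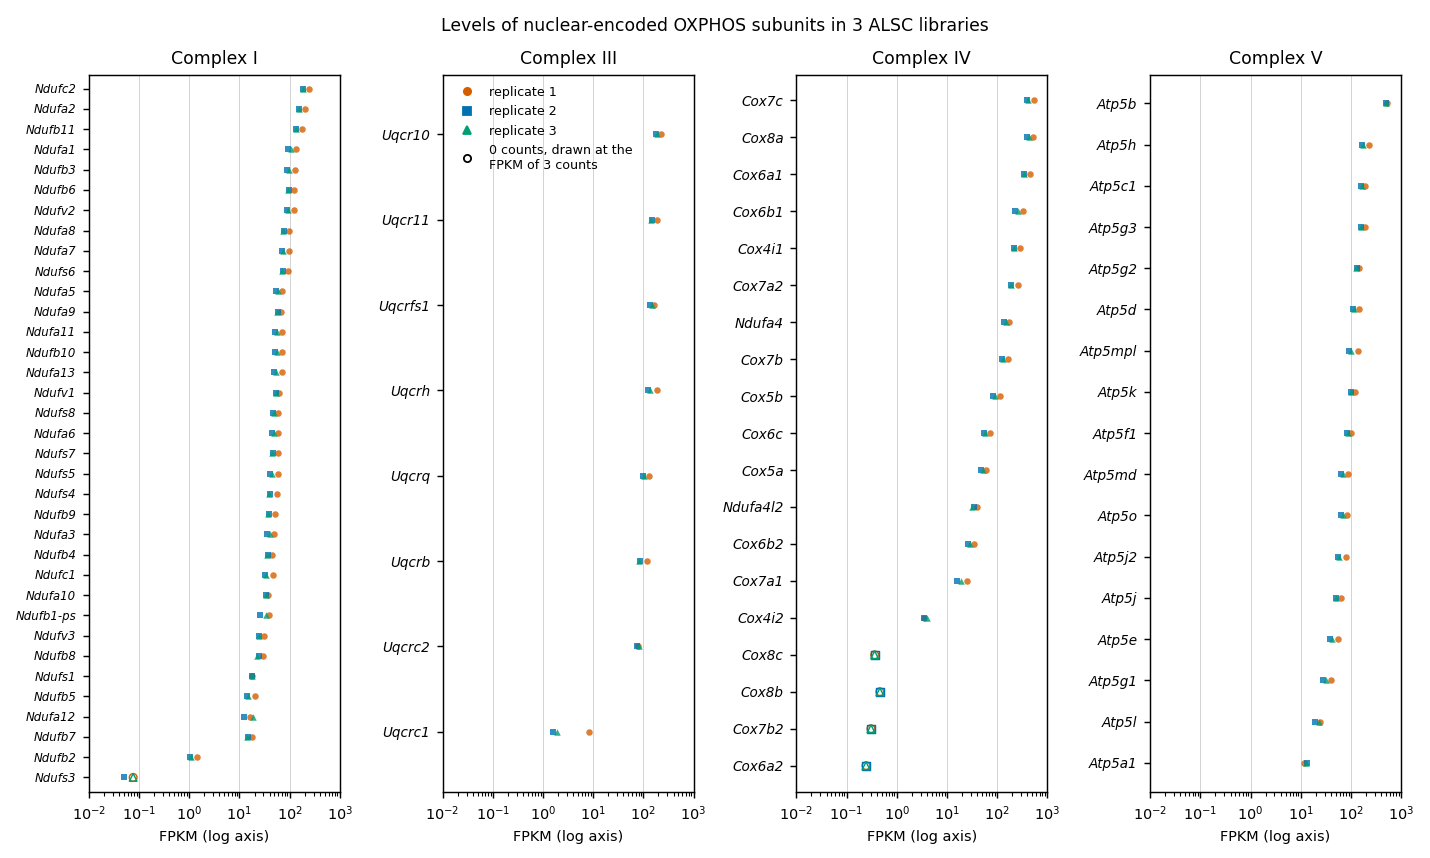
Levels of the subunit genes reported here in FPKM (log axis), with a panel for each complex and genes ordered by mean level. Each symbol is a library, and open symbols mark 0 counts drawn at the FPKM that 3 counts would give; most genes lie between 10 and 500 FPKM, with *Ndufs3*, *Ndufb2*, *Uqcrc1*, *Cox4i2*, *Atp5a1* and the undetected isoforms of complex IV far below their complexes.

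Complex I, the NADH dehydrogenase, had a median of 51.3 ± 6.93 FPKM over its 36 members. Its highest members were *Ndufc2*, a membrane arm subunit, at 203 ± 33.6 FPKM, *Ndufa2*, a matrix arm subunit, at 169 ± 30.4 FPKM, and *Ndufb11*, of the membrane arm, at 148 ± 24.2 FPKM. On the deposited gene lengths the medians of the core, matrix arm and membrane arm members were 51.4 ± 6.58, 58.3 ± 7.03 and 45.5 ± 7.75 FPKM. The core median includes *Ndufs3*, which was not detected. In each library the matrix arm was highest and the membrane arm lowest, an order that was not computed on other lengths. The ranges over the libraries overlapped, at 53.3 to 66.4 FPKM for the matrix arm and 39.6 to 54.3 FPKM for the membrane arm. Among the nuclear-encoded core subunits, which carry the flavin, the iron-sulphur clusters and the quinone site, *Ndufv2* was at 123, 89.2 and 93.9 FPKM in replicates 1, 2 and 3. *Ndufv1*, the flavin-binding subunit, was at 56.3 ± 4.08 FPKM, *Ndufs8* at 51.2 ± 6.34 and *Ndufs7* at 49.9 ± 7.83. *Ndufs1*, the largest iron-sulphur subunit, was lower, at 17.58, 17.95 and 18.02 FPKM. The means of these 5 core genes thus spanned 17.9 to 102 FPKM.

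*Ndufs3*, a core subunit and part of the arm that connects the clusters to the membrane, held 0, 2 and 0 counts. With 3 counts as the floor, that allows at most 0.0764 FPKM in any library. The next lowest member of complex I was *Ndufb2*, a membrane arm subunit, with 148, 110 and 110 counts or 1.45, 1.04 and 1.08 FPKM. *Ndufb7*, a membrane arm subunit on the intermembrane side, had the next lowest mean, 15.6 ± 2.12 FPKM. *Ndufc2* exceeded *Ndufb2* in level 166-fold, 173-fold and 171-fold in replicates 1, 2 and 3.

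The other accessory subunits of complex I lay between these. In the matrix arm the 9 accessory members ranged from *Ndufa12*, which belongs to the tip near the clusters, at 15.8 ± 2.97 FPKM to *Ndufa2*. *Ndufs4* and *Ndufs6*, late-joining subunits of that arm, were at 44.8 ± 8.73 and 80.2 ± 12.6 FPKM. *Ndufa9* was at 59.9 ± 5.76 FPKM and *Ndufv3*, next to the flavin subunits, at 26.8 ± 4.16 FPKM. In the membrane arm the 20 members ranged from *Ndufb2* to *Ndufc2*. X-linked *Ndufa1* was at 132, 94.7 and 105 FPKM, *Ndufb3* at 129, 88.0 and 95.6 FPKM and *Ndufb6* at 123, 95.6 and 93.8 FPKM, each highest in replicate 1. *Ndufc1*, the partner of *Ndufc2* in symbol, was at 37.8 ± 7.66 FPKM.

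Complex III, the cytochrome c reductase, had a median of 126 ± 19.6 FPKM over 8 members. The highest were *Uqcr10*, a small supernumerary subunit, at 199 ± 26.5 FPKM, *Uqcr11*, another, at 160 ± 21.7 FPKM, and *Uqcrfs1*, the Rieske iron-sulphur protein, at 166, 134 and 148 FPKM. *Uqcrh*, the hinge protein, was at 148 ± 34.5 FPKM and *Uqcrq*, a small subunit of the membrane part, at 110 ± 16.6 FPKM. The lowest of the supernumerary subunits was *Uqcrb*, the ubiquinone-binding subunit, at 94.4 ± 18.5 FPKM. The core proteins *Uqcrc1* and *Uqcrc2*, which sit side by side on the matrix face, were far apart. *Uqcrc2* was at 79.4, 76.1 and 83.0 FPKM, and *Uqcrc1* at 8.42, 1.61 and 1.90 FPKM. *Uqcrc2* thus exceeded *Uqcrc1* 9.43-fold in replicate 1 and 47.1-fold and 43.6-fold in replicates 2 and 3. The level of *Uqcrc1* in replicate 1 alone set its mean of 3.98 ± 3.85 FPKM, which was 1.76 FPKM without replicate 1.

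Complex IV, the cytochrome c oxidase, had a median of 61.0 ± 8.68 FPKM over 19 members, and its 15 expressed members spread over a range of 122-fold. *Cox7c*, a small membrane subunit without a paralog among the members, was at 539, 389 and 410 FPKM and had the highest mean of the complex, 446 ± 80.8 FPKM. *Cox5b* and *Cox5a*, subunits on the matrix side that are present as single genes, were at 96.9 ± 15.8 and 53.4 ± 6.69 FPKM, a ratio of 1.81 ± 0.0843 on the deposited gene lengths and of 1.02 on the lengths of the longest coding transcripts.

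In each isoform family of complex IV 1 isoform led, and in 3 of the 7 families no other isoform was detected. *Cox8a*, the ubiquitous isoform of subunit VIII, was at 513, 388 and 433 FPKM. *Cox8b*, known from heart and skeletal muscle, and *Cox8c*, known from testis, held 0 counts in every library. *Cox8a* was therefore at least 872-fold above *Cox8b* and at least 1109-fold above *Cox8c* in each library, taking 3 counts per library as the floor. *Cox6a1*, the ubiquitous isoform of subunit VIa, was at 451, 350 and 337 FPKM. *Cox6a2*, its heart and skeletal muscle isoform, held 0 counts throughout, at least 1377-fold lower. *Cox7b* was at 165, 123 and 129 FPKM. Its paralog *Cox7b2*, known from testis, held 0 counts throughout, at least 416-fold lower.

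The other families had a minor isoform that was detected. *Cox4i1*, the regulatory matrix-facing subunit present in most tissues, was at 282, 218 and 221 FPKM, and *Cox4i2*, known from lung and from hypoxia, at 3.51, 3.52 and 3.94 FPKM on 50, 52 and 56 counts. The leading isoform held 98.5 ± 0.269% of the summed FPKM of that pair. *Cox6b2*, known from testis, was at 34.2, 26.03 and 28.2 FPKM beside *Cox6b1* at 328, 231 and 257 FPKM, so that *Cox6b1* held 90.2 ± 0.346%. *Cox7a1*, known from heart and skeletal muscle, was at 25.6, 15.97 and 19.5 FPKM on 248, 160 and 188 counts, beside *Cox7a2* at 262, 187 and 192 FPKM, which held 91.3 ± 0.694%. These minor isoforms were detected in libraries whose markers of muscle, testis and lung were at the low levels given above. *Ndufa4*, a subunit first assigned to complex I, was at 170, 135 and 147 FPKM. Its hypoxia-induced paralog *Ndufa4l2* was at 39.2, 34.4 and 31.5 FPKM, and *Ndufa4* held 81.1 ± 1.34% of the pair. *Hif1a*, the hypoxia-responsive factor, was at 24.4, 25.6 and 25.4 FPKM. In all 7 of these families the leading isoform was higher in each of the 3 libraries, with no overlap between the isoforms' values.

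**Figure D2:**
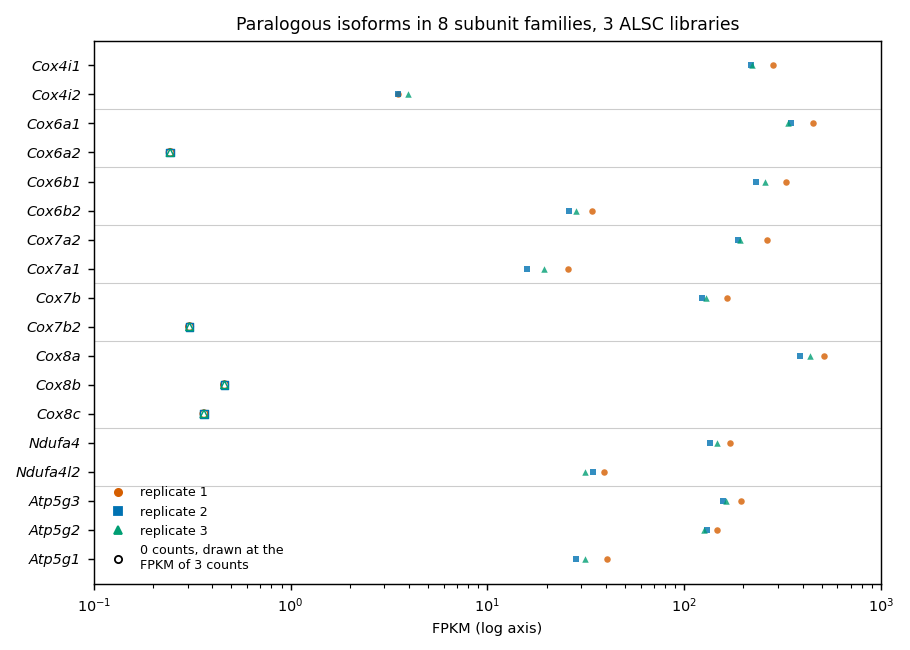
FPKM (log axis) of the isoforms of 8 subunit families in 3 libraries, with families divided by lines and open symbols for 0 counts drawn at the FPKM of 3 counts. In the families of complex IV the isoforms do not overlap, and *Cox6a2*, *Cox7b2*, *Cox8b* and *Cox8c* have no counts.

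The bases upstream of the gene starts are shown for the *Cox8*, *Cox7a*, *Cox6b* and *Cox7b* pairs of complex IV, because both isoforms had an entry in the RefSeq promoter table (build GRCm38.p6), and the leading isoform is given first. Each run holds the 250 bases before the RefSeq gene start, 5′ to 3′ on the gene's strand, and capitals mark CG dinucleotides. For *Cox7a2*, *Cox7a1* and *Cox6b1* the end of the run lies inside the gene by its deposited position.
Cox8a (chr19:7217617-7217866, minus strand): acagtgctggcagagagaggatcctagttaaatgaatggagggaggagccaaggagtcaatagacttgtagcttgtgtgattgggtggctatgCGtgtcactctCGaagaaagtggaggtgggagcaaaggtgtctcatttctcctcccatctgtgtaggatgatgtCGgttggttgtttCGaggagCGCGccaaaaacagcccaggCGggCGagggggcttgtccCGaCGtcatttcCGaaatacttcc
Cox8b (chr7:140900447-140900696, minus strand): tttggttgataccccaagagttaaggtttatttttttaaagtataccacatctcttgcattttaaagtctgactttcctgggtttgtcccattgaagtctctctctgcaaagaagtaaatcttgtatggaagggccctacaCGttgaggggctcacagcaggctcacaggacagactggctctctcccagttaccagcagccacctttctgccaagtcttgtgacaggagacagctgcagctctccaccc
Cox7a2 (chr9:79759854-79760103, minus strand): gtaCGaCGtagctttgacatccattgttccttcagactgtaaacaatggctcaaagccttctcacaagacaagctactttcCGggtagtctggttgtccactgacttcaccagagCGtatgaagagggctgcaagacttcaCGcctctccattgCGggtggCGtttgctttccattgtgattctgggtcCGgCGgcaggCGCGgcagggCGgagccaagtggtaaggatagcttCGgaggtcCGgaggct
Cox7a1 (chr7:30183921-30184170, plus strand): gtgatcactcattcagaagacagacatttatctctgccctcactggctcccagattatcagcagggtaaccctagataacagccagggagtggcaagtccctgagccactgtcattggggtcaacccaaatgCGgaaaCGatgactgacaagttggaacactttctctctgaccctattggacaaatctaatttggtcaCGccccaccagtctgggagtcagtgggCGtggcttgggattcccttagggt
Cox6b1 (chr7:30626115-30626364, minus strand): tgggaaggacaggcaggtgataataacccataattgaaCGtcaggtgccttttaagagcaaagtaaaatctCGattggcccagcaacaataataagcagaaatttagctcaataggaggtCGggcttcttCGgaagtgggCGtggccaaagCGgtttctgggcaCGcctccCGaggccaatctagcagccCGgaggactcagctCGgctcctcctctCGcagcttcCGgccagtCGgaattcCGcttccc
Cox6b2 (chr7:4753095-4753344, minus strand): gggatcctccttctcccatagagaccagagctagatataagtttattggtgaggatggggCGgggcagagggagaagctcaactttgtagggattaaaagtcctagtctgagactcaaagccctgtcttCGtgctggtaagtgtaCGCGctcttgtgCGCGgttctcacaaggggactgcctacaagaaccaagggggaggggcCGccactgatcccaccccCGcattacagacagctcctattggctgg
Cox7b (chrX:106015450-106015699, plus strand): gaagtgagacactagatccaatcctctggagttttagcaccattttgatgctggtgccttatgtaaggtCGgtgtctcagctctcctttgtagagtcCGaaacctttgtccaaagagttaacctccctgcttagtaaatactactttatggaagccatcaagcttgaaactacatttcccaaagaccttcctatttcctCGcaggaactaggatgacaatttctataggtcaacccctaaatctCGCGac
Cox7b2 (chr5:71548206-71548455, minus strand): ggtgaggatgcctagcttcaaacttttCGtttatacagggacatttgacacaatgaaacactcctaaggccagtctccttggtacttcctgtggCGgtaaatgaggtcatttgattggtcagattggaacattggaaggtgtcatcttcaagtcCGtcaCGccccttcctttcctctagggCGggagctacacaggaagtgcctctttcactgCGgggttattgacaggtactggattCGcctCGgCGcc
The leading isoforms *Cox8a*, *Cox7a2* and *Cox6b1* held 11, 14 and 14 CG dinucleotides in these windows, and *Cox8b*, *Cox7a1* and *Cox6b2* held 1, 4 and 8. The fourth pair went the other way, with 5 in *Cox7b* and 9 in the undetected *Cox7b2*. In the c ring family of ATP synthase the leading *Atp5g3* held 15, *Atp5g2* 19 and *Atp5g1* 15, so the leading isoform did not hold the most CG dinucleotides in every family. The median was 14 over the 63 expressed members in the table, 17 over 8044 expressed protein-coding genes and 6 over all 32851 promoters. These counts describe the sequence, and DNA methylation of these windows was not analysed here.

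ATP synthase had a median of 90.2 ± 10.9 FPKM over 17 members and held the highest level of all members. *Atp5b*, the catalytic beta subunit of F1, was at 526, 506 and 490 FPKM. *Atp5h*, subunit d of the peripheral stalk, was at 190 ± 36.0 FPKM, and *Atp5c1*, the gamma subunit of the central stalk, at 173 ± 19.3 FPKM. *Atp5d* and *Atp5e*, the delta and epsilon subunits of the central stalk, were at 123 ± 19.7 and 45.0 ± 9.02 FPKM. The alpha subunit *Atp5a1*, which alternates with beta in the F1 ring, was the lowest member of the complex, at 11.5, 13.1 and 12.8 FPKM on 653, 769 and 724 counts. *Atp5b* exceeded it 45.7-fold, 38.6-fold and 38.2-fold in replicates 1, 2 and 3. The ring itself holds alpha and beta in equal number.

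The c ring of ATP synthase, which turns as protons pass, is encoded by 3 genes whose mature proteins are the same. All 3 were expressed. *Atp5g3* was at 194, 158 and 162 FPKM, *Atp5g2* at 147, 130 and 127 FPKM, and *Atp5g1* at 40.3, 28.1 and 31.3 FPKM. Their shares of the summed FPKM were 50.5 ± 0.532%, 39.7 ± 1.37% and 9.74 ± 0.851%, so the leading isoform held a smaller share than in any of the 7 families above. The order was the same in each library. *Atp5g1* had 3584, 2582 and 2771 counts, and its low FPKM went with a gene length of 4912 bases, against 1675 for *Atp5g2* and 2181 for *Atp5g3*. In counts the shares were 49.1%, 29.6% and 21.3% for *Atp5g3*, *Atp5g2* and *Atp5g1*. The processed pseudogene *Gm10039* of *Atp5g1* held 1096, 903 and 807 counts. How reads were divided between the gene and this copy is not known, so the shares are uncertain.

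In the peripheral stalk, which holds F1 against the turning rotor, *Atp5f1* (subunit b) was at 90.2 ± 10.9 FPKM, *Atp5o* (the oligomycin sensitivity subunit) at 72.1 ± 10.1 FPKM and *Atp5j* (coupling factor F6) at 54.996 ± 7.27 FPKM. With *Atp5h*, the 4 stalk genes thus lay within a range of 54.996 to 190 FPKM. The small membrane subunits of Fo and of the dimer interface were led by *Atp5mpl* at 136, 92.2 and 102 FPKM and *Atp5k* (subunit e) at 122, 100.5 and 102 FPKM. *Atp5md* was at 74.2 ± 13.4 FPKM, *Atp5j2* (subunit f) at 63.7 ± 12.6 FPKM and *Atp5l* (subunit g) at 22.3 ± 2.98 FPKM. *Cox7a2l*, which links complexes III and IV in supercomplexes, was at 112, 79.0 and 88.8 FPKM.

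The low counts of *Ndufs3*, *Uqcrc1* and *Atp5a1* were set against their neighbours, a comparison chosen after their values were seen. Around *Ndufs3* (chr2:90894634-90904827, minus strand, GRCm38) the protein-coding genes *C1qtnf4*, *Kbtbd4*, *Ptpmt1* and *Celf1* also held 0 counts in every library. *Mtch2*, at the edge of that stretch, held 1545, 1562 and 1524 counts. The same stretch of positions carries 5 unnamed rows of the table on the patch sequence MG191, with 525, 853 and 773 counts together. Next to *Uqcrc1* (chr9:108936633-108949623) the genes *Nckipsd*, *Celsr3* and *Tmem89* held 0 counts and *Slc26a6* held 1, 0 and 0. Here 4 unnamed rows lie on the patch sequence MG117, with 165, 168 and 113 counts, and the nearest ends 71.8 kb before *Uqcrc1*. Downstream of *Atp5a1* (chr18:77773729-77782869), *Epg5* held 0, 1 and 0 counts and *Pstpip2* 20, 25 and 18, while *Haus1*, which overlaps its start, held 516, 399 and 175. The 2 unnamed rows on the patch MG3700 lie 87.3 kb away. In all, 106 rows of the table lie on 37 patch or alternative sequences, and all 106 lack a gene name. Whether reads of these members were lost to such sequences was not tested. As background, 45.7% of all protein-coding genes reached 1 FPKM in every library. The share of them with 0 counts was not computed, so the 0 counts of neighbours cannot be read as particular to these places. The low count of *Ndufb2* was not traced further.

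**Figure D3:**
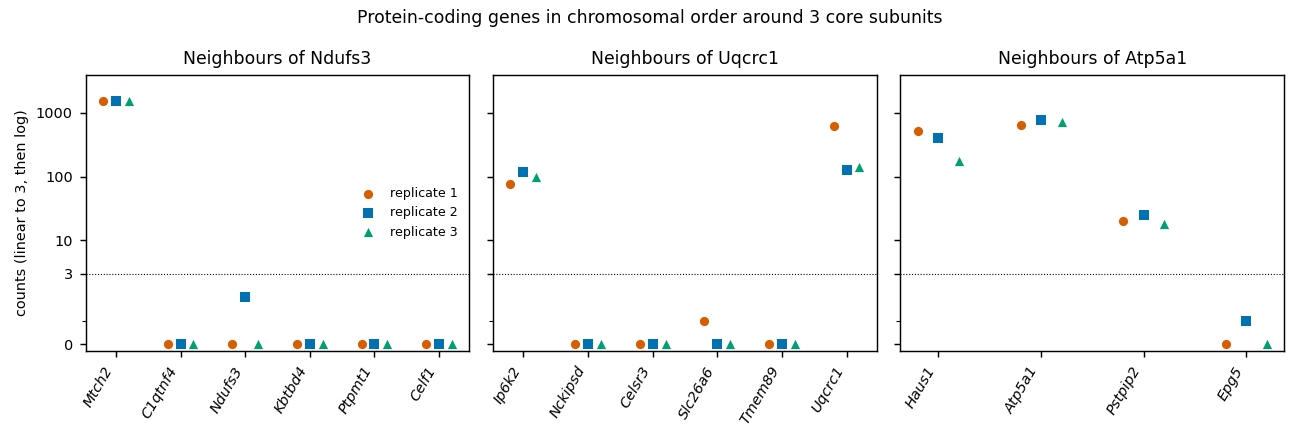
Counts of protein-coding genes in chromosomal order around *Ndufs3*, *Uqcrc1* and *Atp5a1*, on an axis that is linear to 3 counts (dotted line) and logarithmic above, with a symbol for each library. Genes with 0 or 1 counts lie beside *Mtch2*, with 1524 to 1562 counts, and *Ip6k2*, with 77 to 117.

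The gene length of the table lowered the FPKM of some members more than of others. That length was the union of all annotated exons in all 82 member rows, and in 23 of them it was more than 2 times the longest coding transcript. *Atp5l* has a union of 6443 bases and a longest coding transcript of 544 bases, and its mean level was 22.3 FPKM on the first length and 265 FPKM on the second. *Ndufb7* moved from 15.6 to 114 FPKM, *Cox6c*, a small subunit of complex IV, from 61.0 to 295 FPKM, and *Ndufs1* from 17.9 to 54.3 FPKM. *Atp5l* and *Ndufb7* thus stand among the lowest of their complexes only on the deposited length. *Ndufb2*, *Uqcrc1*, *Cox4i2* and *Atp5a1* stayed low on both, at 1.54, 9.96, 3.93 and 14.6 FPKM on the longest coding transcripts. For *Ndufb2* (5628 and 4371 bases), *Cox4i2* (788 and 733) and *Atp5a1* (3135 and 2674) the 2 lengths differed far less than for *Atp5l*. Their levels could therefore move little. On the longest coding transcripts *Atp5b* exceeded *Atp5a1* 77.0-fold. The medians of complexes I, III, IV and V over all members with a coding transcript were then 80.6, 152, 174 and 208 FPKM. The order of the complexes thus depended on the length used.

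**Figure D4:**
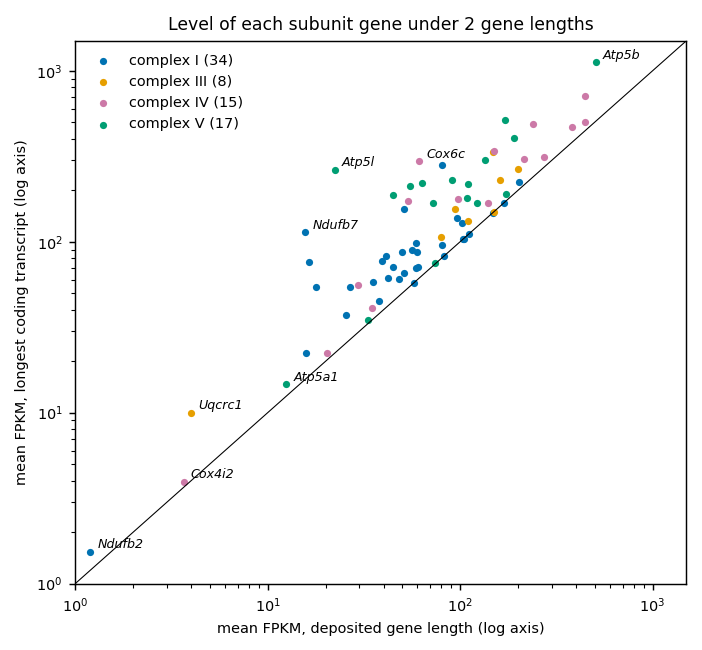
Mean FPKM of 74 expressed members on the deposited gene length (horizontal, log axis) and on the longest coding transcript (vertical, log axis), coloured by complex; the line marks equal values. *Atp5l*, *Ndufb7* and *Cox6c* lie farthest above the line, and *Ndufb2*, *Uqcrc1*, *Cox4i2* and *Atp5a1* are low on both axes.

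Sequence shared with other genes, whether copies elsewhere or genes overlapping at the same place, made some member counts uncertain. A transcript's uniqueness was taken as the share of its 50-base words found in no transcript of another gene. It was 100% in 35 member rows and under 75% in 15. These 15 include rows that share words with an overlapping gene, such as *Ndufb6* with *Smim27*. *Atp5l* had the lowest share among expressed members, 15.2%. Its processed pseudogene *Gm10221* held 961, 690 and 749 counts, beside 2887, 2294 and 2698 on *Atp5l*. The copy *Gm12338* of *Cox7c* held 2219, 1572 and 1744 counts, which was 20.03% of the count on *Cox7c*. The copies *Gm6969* of *Cox7a2l*, *BC002163* of *Ndufs5* and *Gm10039* of *Atp5g1* held 62.7%, 62.2% and 31.4% of the counts on those genes. For *Ndufa12*, a matrix arm subunit of complex I, the copy *Gm15920* held 1005, 915 and 746 counts against 471, 368 and 518 on the gene itself. *Ndufs3* had a copy, *Gm12251*, with 123, 83 and 71 counts, more than on *Ndufs3*. How the reads were divided between genes and copies is not given in the sources used here, so the values of these members are uncertain.

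Counts of the members varied between libraries. A chi-square test of homogeneity with Benjamini-Hochberg adjustment called 73 of the 76 members tested, against a background of 47.2% of all genes tested. At like depth the gap was smaller, since of the 63 members that averaged 1000 counts or more, 62 were called, against 82.2% of all genes of that depth. The 3 members not called were *Ndufs1* (2572, 2718 and 2629 counts, adjusted p = 0.546 in the chi-square test), *Atp5a1* (adjusted p = 0.433 in the same test) and *Cox4i2* (adjusted p = 0.851 in the same test). The largest chi-square per count belonged to *Uqcrc1* with 630, 125 and 142 counts, followed by *Cox7a1*, by *Uqcrh* with 4181, 2816 and 3012 counts, by *Ndufb3*, a membrane arm subunit, with 1787, 1257 and 1316 counts, and by *Atp5mpl*, a small subunit of ATP synthase, with 3001, 2102 and 2239 counts. In each of these the highest count was in replicate 1. The smallest values per count were those of *Ndufs1*, *Atp5a1*, *Uqcrc2*, *Atp5b* (40327, 40138 and 37412 counts) and *Ndufa10* (2241, 2115 and 2076 counts).

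Nearly all members were highest in replicate 1. After TMM scaling 72 of 76 members had their highest value there, against a background of 43.3% of all genes with at least 10 counts in every library. The median member was 0.44 higher in replicate 1 than in the mean of the other libraries on the log2 scale, a factor of 1.36, while the median over all genes was 0.01. In replicates 2 and 3 the median deviations of the members were -0.30 and -0.16. The median SD of the members' log2 CPM was 0.26, against 0.18 over all genes.

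This deviation moved with transcript length. Of the 47 members with a longest coding transcript of at most 1000 bases, 46 were highest in replicate 1, against a background of 90.7% of all genes that short. The median deviation in replicate 1 was 0.44 for these members and 0.41 for the 580 genes of that length. By median, longer members lay above genes of like length, though few members had transcripts over 2000 bases. From 1000 to 2000 bases the median was 0.42 for 21 members and 0.26 for 2348 genes, from 2000 to 4000 bases 0.19 for 5 members and 0.03 for 5060 genes, and above 4000 bases 0.51 for 2 members and -0.30 for 4430 genes. The 2 members above 4000 bases were *Ndufb2*, with 148, 110 and 110 counts, and *Atp5g1*, whose counts are uncertain because of its copy *Gm10039*. Whether their longest transcripts were the ones expressed was not tested. With a trend on the length of the longest coding transcript removed, the members' median deviations became 0.02, -0.04 and -0.02 in replicates 1, 2 and 3. With the trend on the deposited length removed they were 0.14, -0.12 and -0.07, and a further trend on GC content left 0.15, -0.11 and -0.07. The members are short genes, with a median longest coding transcript of 838 bases in the 76 expressed ones against 3065 bases in expressed protein-coding genes. Whether the RNA, the library preparation or the cells differed in replicate 1 cannot be told apart with these data.

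**Figure D5:**
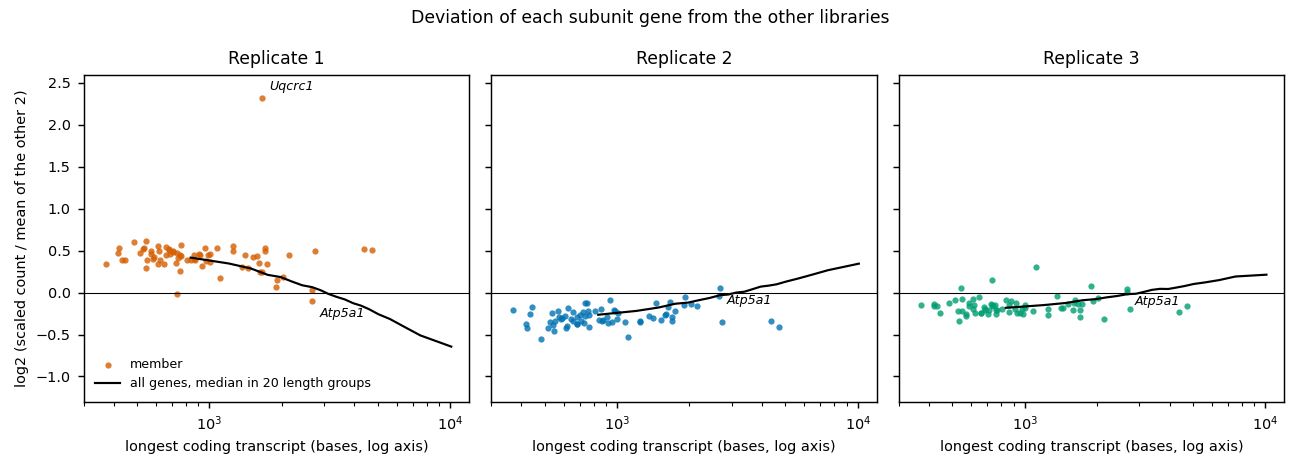
Deviation of each member in each library, as log2 of its scaled count over the mean of the other 2 libraries, against the length of its longest coding transcript (log axis). The line is the median of all genes that averaged 100 counts or more in 20 groups of length; the shorter members lie near that line, above 0 in replicate 1 and below 0 in replicates 2 and 3, with *Uqcrc1* far above it in replicate 1.

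Without replicate 1 the remaining libraries were close to each other in the members' values. The median SD of the members' log2 CPM became 0.07, which was not computed over all genes in this setting. The same chi-square test called 22 of 76 members, against a background of 8.11%. At an average of 1000 counts or more it called 19 of 63 members, against 18.4% of all genes of that depth. All 22 were higher in replicate 3 than in replicate 2. The share of all called genes with that direction was not computed, so it cannot be read as particular to the members. The 22 members included *Cox8a* (4498 and 4834 counts in replicates 2 and 3), *Ndufa12* (368 and 518 counts), *Uqcrfs1* (3417 and 3641 counts) and *Uqcrc2* (3635 and 3820 counts). *Uqcrc1* was not among them, with 125 and 142 counts and an adjusted p of 0.420 in the chi-square test.

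Other genes of the pathway were taken from a list. In complex II, the succinate dehydrogenase, which is encoded wholly in the nucleus and lies outside the symbol rule, 4 of 4 genes reached 1 FPKM, with *Sdha* at 74.6, 79.9 and 76.8 FPKM. Cytochrome c1 (*Cyc1*) was at 122 ± 3.64 FPKM and cytochrome c (*Cycs*) at 75.3, 64.8 and 65.6 FPKM, while the testis form *Cyct* held 3, 0 and 0 counts. *Ndufab1*, the acyl carrier subunit of complex I that the symbol rule leaves out, was at 15.5, 11.3 and 12.3 FPKM. Assembly factors were lower, with medians of 11.7 FPKM for 14 genes of complex I, 7.72 FPKM for 6 of complex III, 8.92 FPKM for 18 of complex IV and 24.6 FPKM for 4 of ATP synthase, the last including its inhibitor *Atpif1* at 70.0 ± 11.5 FPKM. Among them *Sco2* and *Pet117* held 0 counts. Of 7 carriers, 6 reached 1 FPKM, led by the ADP/ATP carrier *Slc25a5* at 474, 381 and 400 FPKM, and the testis carrier *Slc25a31* held 0 counts. Among uncoupling proteins *Ucp2* was at 30.1, 31.8 and 32.0 FPKM and *Ucp1* held 3, 0 and 0 counts.

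The mitochondrially encoded subunits, 13 genes in all, made up 1.29%, 1.14% and 1.15% of all counts in replicates 1, 2 and 3, so that the members held 1.10, 1.00 and 1.02 counts for each of theirs. Their values were uneven. *mt-Co1*, a catalytic subunit of complex IV, held 115528, 112729 and 108917 counts, and *mt-Co2*, its neighbour on the mitochondrial genome, 448, 301 and 367. The ratio to the members thus rests on a few mitochondrial genes.

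Regulators of the pathway were mostly not highest in replicate 1. The transcription factors *Nrf1* and *Gabpa*, known activators of subunit genes, were at 6.67, 6.75 and 7.68 FPKM and at 16.02, 18.95 and 17.4 FPKM. *Ppargc1a*, the coactivator of mitochondrial genes in brown fat and muscle, held 4, 0 and 0 counts, and its relative *Pprc1* was at 14.1, 20.7 and 21.2 FPKM. Of 11 regulators with at least 10 counts in every library, 1 (*Tfam*) was highest in replicate 1, against the background of 43.3% of all genes. Of the assembly factors 12 of 14 for complex I, 5 of 6 for complex III, 11 of 15 for complex IV and 3 of 4 for ATP synthase were highest there, against the same background and 90.7% of genes with transcripts of at most 1000 bases. The transcript lengths of these genes, with which this measure moved, were not taken into account.

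Binding motifs of the regulators were looked for in the 250 bases upstream of the 63 expressed members in the promoter table, on both strands. The NRF1-like word GCGCANGCG was in 11 of them (17.5%), against 5.16% of all promoters and 12.8% of those of expressed protein-coding genes. The ETS word CCGGAAG, which GABPA binds, was in 9 (14.3%), against 6.91% and 15.4%. The YY1-like word CAANATGGC was in 3 (4.76%), against 1.33% and 2.06%, and the TATA box word TATAAA in 6 (9.52%), against 12.4% and 5.35%. The shares for the members were thus near those of expressed genes for the ETS word. For the other words the gaps to expressed genes rest on few members and were not tested. *Cox6a1* is shown because it held NRF1-like words and an ETS word together, with those words in capitals.
Cox6a1 (chr5:115348959-115349208, minus strand): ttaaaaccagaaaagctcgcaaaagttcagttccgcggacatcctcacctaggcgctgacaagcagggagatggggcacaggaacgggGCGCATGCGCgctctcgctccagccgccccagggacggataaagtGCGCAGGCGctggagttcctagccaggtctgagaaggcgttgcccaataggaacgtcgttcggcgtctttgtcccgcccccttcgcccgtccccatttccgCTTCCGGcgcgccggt
In this window the leftmost base of the ETS word, which is on the opposite strand, lies 16 bases before the RefSeq gene start. The leftmost bases of the NRF1-like words lie 162, 161 and 117 bases before that start. The first of these words overlaps the second, which is on the opposite strand. By its deposited position *Cox6a1* reaches 115348981, so the ETS word lies inside the gene as counted. *Atp5h* and *Atp5l* also held both kinds of word. A match describes the sequence only.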

How the data were processed

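RNA-seq was done on 3 ALSC libraries. The deposited table, made by the authors, holds unnormalised read counts and a length for each gene. The submitters' processing notes name HISAT2 2.0.5 and the study names GRCm38. The counting program and its handling of strand and of reads with several positions are not given in the sources used here. The 3 other count columns of the table match no sample of this series and were not used. The 317 rows without a gene name held 0.165%, 0.182% and 0.182% of the counts and were left out.

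FPKM was computed from the counts, the deposited gene length and the total on named genes, which were 18088505, 18724038 and 18037342. The gene length equals the exon union of GENCODE M21 in 99.3% of rows. Library composition was scaled with TMM (edgeR 4.0.16, R 4.3.3), with DESeq2 1.42.0 size factors as an alternative. With 1 condition, levels and shares are descriptions. The only test was a chi-square test of homogeneity of each gene's counts against the scaled library sizes, over named genes whose counts summed to 10 or more, adjusted by Benjamini-Hochberg with a threshold of 0.05. It covers counting error only. It was tested on data simulated with counting error only, so that check does not cover other spread between libraries. Deviations are log2 ratios with 0.5 counts added, for genes with at least 10 counts in every library. Trends were removed by lowess (span 0.3, genes averaging 100 counts or more). Python 3.11.15, SciPy 1.17.1, statsmodels 0.14.6 and matplotlib 3.10.9 were used.

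The members, the isoform families, the lists of pathway genes and the lists of markers were chosen with earlier results of these data known. The genes named in the text were every isoform of a family, the 3 highest and 3 lowest of each complex, members with at most 3 counts in a library, core subunits, and the 5 largest and 5 smallest values of chi-square per count among members averaging 100 counts or more. The values of a member that this rule names are not reported here. Other members, the neighbours and the pseudogenes were named after their values were seen. Upstream sequences came from the RefSeq promoter table, which held 66 of the 81 symbols, 2 of them under another symbol. In 60 of the 66 the bases just after the start lay in a GENCODE transcript of the gene.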

Additional observations from a re-analysis of the deposited data

Results flagged for a closer look

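An unnamed row of the table, on the patch sequence MG191 and covering positions 90894629 to 90905374 of chromosome 2, held 10, 104 and 5 counts in replicates 1, 2 and 3, 119 in all. These positions match those of *Ndufs3*, which held 0, 2 and 0 counts on the chromosome itself. The row was picked by hand for its position over *Ndufs3*. It lies outside the named genes used in the report and exceeds the limit of 3 counts in every library. The other unnamed rows on MG191 along that stretch also exceed this limit and were not flagged. Its highest count was in replicate 2, and its gene identity is not given. No other result was flagged. A search for outlying samples was not run, since groups of 3 libraries are too small for it.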

How the results depend on the processing

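No paired analysis was possible because all libraries belong to 1 condition. The count of members at the level threshold was 73 to 76 under all alternatives, with 75 on the longest coding transcripts because *Ndufb1-ps* has no coding transcript there. Gene length moved the median FPKM most. On the longest coding and on the APPRIS principal transcripts (the latter added after seeing the data) it was 80.6 and 85.7 for complex I, 152 and 152 for complex III, 174 and 174 for complex IV, and 208 and 218 for complex V. For complex IV it was 139 over the members with at least 10 counts in every library, since the undetected isoforms then drop out. The leading isoform's share on the longest coding transcripts, in counts and on the APPRIS transcripts was 99.2%, 99.2% and 99.2% for *Cox4i1*, 84.8%, 85.4% and 84.8% for *Cox6b1*, 89.2%, 84.4% and 89.2% for *Ndufa4*, and 60.7%, 49.1% and 60.1% for *Atp5g3*. For *Cox7a2* it was 93.2% on the longest coding transcripts and 94.9% in counts. The same isoform led in each case. On the longest coding transcripts *Atp5g3* went from 2181 to 723 bases and *Atp5g2* from 1675 to 753. *Atp5g1* went only from 4912 to 4715 bases, so its level was hardly changed by this setting. Removing a trend on transcript length, added after seeing the data, took the members' median deviation in replicate 1 to 0.022. Leaving out each library in turn, the chi-square test called 22 to 73 members and the median SD of log2 CPM ranged from 0.067 to 0.341, the low values both without replicate 1. Dropping *Ndufs3*, *Uqcrc1* and *Atp5a1* from the tally left 72 of 74 members called, because *Uqcrc1* was the only called member among them. Scaling by DESeq2 size factors changed no direction and left the calls at 73. Of 50 genes named, 35 changed in mean FPKM by more than 1 SD on the longest coding transcripts. Leaving out a library cannot move a mean of so few libraries by 1 SD, so this limit says nothing about that setting. The mean of *Uqcrc1*, for example, went from 3.98 to 1.76 FPKM without replicate 1. For members at 3 counts or fewer, *Ndufs3* included, depth allows only an upper limit.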
